A study of Mus musculus with 10 samples.

Results

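Neutrophils, the short-lived granulocytes that enter injured tissue early, were followed in a droplet RNA sequencing time course of the injured mouse kidney. A cell barcode was kept if at least 500 genes were detected and at most 50% of its UMIs (unique molecular identifiers, each standing for 1 captured RNA molecule) came from mitochondrial genes. A kept barcode was taken as a neutrophil if it held at least 10 UMIs of S100a8 and S100a9 together, at least 1 UMI of Csf3r, Cxcr2, Retnlg or Il1b, and 0 UMIs of C1qa, C1qb, C1qc, Havcr1, Slc12a1 and Pecam1. The neutrophils were thus chosen by their own measured UMIs of these genes, which describe them and test nothing. In all, 78 of 52797 kept barcodes met this rule. The libraries were made from kidney cortex of mice aged 4 weeks: 1 library of normal kidneys (control), 1 each of injured kidneys on days 1, 2 and 4, and 2 each on days 7, 11 and 14. The labels give the injured groups by day and name no kind of injury, strain, sex or number of animals, so the spread between the 2 libraries of a day may be technical.

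Neutrophils are made in the bone marrow, store antimicrobial proteins in granules and leave the blood along chemokine and complement gradients. S100A8 and S100A9 form calprotectin, an abundant cytosolic complex of these cells. CSF3R is the receptor for G-CSF, the cytokine that drives their production, and CXCR2 is their receptor for CXC chemokines. In the injured kidney they are known as early arrivals that are followed by monocytes and macrophages.

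The day 1 library held 20 neutrophils among 3568 kept barcodes, 0.561% with an exact (Clopper-Pearson) 95% interval of 0.343% to 0.864%. The day 2 library held 49 of 4087, 1.20% (0.888% to 1.58%). The 2 intervals did not overlap, and they cover counting error only, as there was 1 library for each of these days. They did overlap with a minimum of 20 UMIs of the S100 pair (0.257% to 0.727% and 0.721% to 1.36%) and without cells over 2 times the median UMIs (0.321% to 0.830% and 0.762% to 1.41%). On day 4 there was 1 neutrophil among 6417 kept barcodes. The day 7 libraries held 3 of 3621 and 4 of 5154, a mean of 0.0802% ± 0.00371 (SD, n = 2 libraries). Of the day 14 libraries, the first held 0 of 6941 and the second 1 of 6183. None was found among 6134 kept control barcodes, nor among 5409 and 5283 on day 11. Read as at most 3 counts, a count of 0 allows a share of up to 0.0489% in the control library, 0.0555% and 0.0568% on day 11 and 0.0432% in the first day 14 library. The exact 95% interval that is plotted reaches further, to 0.0601% in the control library. With a minimum of 5 UMIs of S100a8 and S100a9 together, 1 of the 6134 control barcodes would have met the rule. Fewer neutrophils in the tissue and fewer neutrophils surviving dissociation or the 500-gene minimum cannot be told apart in these shares.

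**Figure D1:**
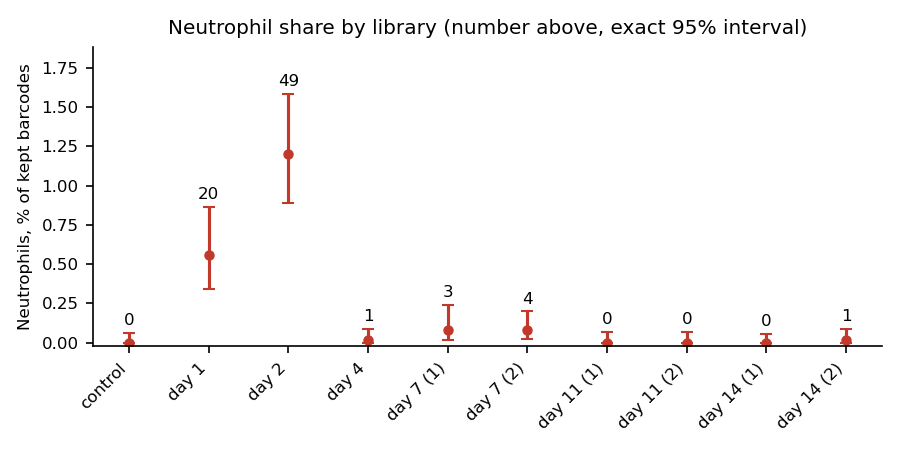
Neutrophils as a percentage of kept barcodes in each of the 10 libraries (x axis; the number in brackets is the replicate), with exact 95% binomial intervals and the number of neutrophils above each point. Days 1 and 2, at 0.561% and 1.20%, stand above every other library.

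The S100a8 and S100a9 genes lie near each other on chromosome 3, at chr3:90668978-90670035 on the plus strand and chr3:90692632-90695721 on the minus strand (GENCODE annotation of GRCm38, the same assembly as mm10). Because the choice of these cells rests on this gene pair, the 150 bases before the start of each gene are shown (RefSeq, GRCm38, chr3:90668828-90668977 and chr3:90695722-90695871, 5′ to 3′ in the direction of each gene). Capitals mark letters found on either strand of TTNNGNAA, a motif of the C/EBP factors that drive granulocyte genes, and of GAGGAA, the core bound by the myeloid factor PU.1.
S100a8: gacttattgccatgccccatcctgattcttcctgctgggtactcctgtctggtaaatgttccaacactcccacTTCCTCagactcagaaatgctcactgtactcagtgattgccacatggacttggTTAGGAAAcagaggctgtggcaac
S100a9: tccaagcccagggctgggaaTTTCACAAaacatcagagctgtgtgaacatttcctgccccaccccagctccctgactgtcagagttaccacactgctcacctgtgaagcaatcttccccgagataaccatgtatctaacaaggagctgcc
S100a8 held 1 match of each motif and S100a9 held 1 of the C/EBP motif, with no overlap between them. Over 32851 RefSeq promoter windows of this length, 22.7% held the C/EBP letters and 14.5% the PU.1 letters, so such matches are frequent and are given as a description.

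S100a8 was counted 455 times in the 20 neutrophils of day 1 (1 to 66 UMIs per cell, median 15) and 1918 times in the 49 of day 2 (4 to 174, median 32). S100a9 gave 705 UMIs on day 1 (4 to 87 per cell, median 32.5) and 1889 on day 2 (3 to 220, median 26). The pair together made up a median of 2.98% of a neutrophil's UMIs on day 1 and 4.82% on day 2, with single cells from 0.162% to 26.3%. These values chose the cells and are a description. Just inside the threshold, 9 neutrophils had 10 to 14 UMIs of the pair; just outside it, 12 kept barcodes met every other term of the rule with 6 to 9 UMIs.

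Of the 4 further genes in the rule, Cxcr2 was seen in 17 of 20 neutrophils on day 1 and 45 of 49 on day 2, and Il1b, which encodes the inflammatory cytokine IL-1β, in 16 and 40. Csf3r was seen in 6 and 25. Retnlg, which encodes a resistin-like protein of granulocytes, was seen in 13 of 20 on day 1 (136 UMIs, up to 44 in a cell) but in 14 of 49 on day 2 (148 UMIs, up to 38). Retnlg was thus present in some neutrophils and undetected in others of the same library, at a median of 565 genes per cell on day 2. Of the 69 neutrophils of days 1 and 2, 63 held UMIs of at least 2 of these 4 genes, and 9 held all 4. None of the 78 qualified through Il1b alone.

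**Figure D2:**
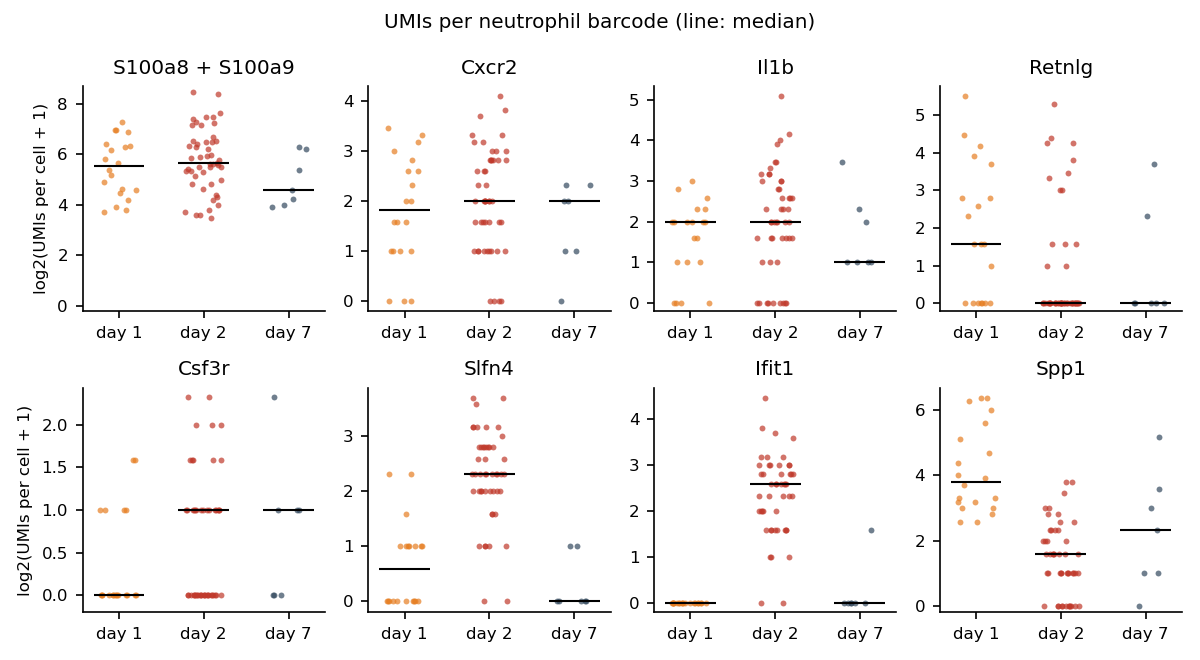
UMIs per neutrophil for the gene named above each panel, as log2(UMIs + 1) on the y axis, by day (day 7: both libraries); each point is a barcode and the line is the median. The S100a8 and S100a9 sum overlaps between days, Ifit1 is at 0 in all day 1 cells and present in most day 2 cells, and Spp1 is highest on day 1.

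Other RNA in these barcodes was measured before any comparison. Spp1, which injured tubule epithelium makes in quantity, was present in 20 of 20 neutrophils on day 1 at 17152 CPM, the summed count of the cells scaled to their UMI total, against 17038 CPM in all other kept barcodes. In day 2 neutrophils it stood at 1705 CPM, against 5582 CPM in the others. UMIs of the 24 tubular marker genes outside the rule in the proximal, injured and distal lists made up a median of 3.20% of a day 1 neutrophil's UMIs, against 3.17% in other kept barcodes and 1.30% in monocyte-like cells. On day 2 the medians were 1.28%, 3.12% and 0.510%. On day 1, 10 of 20 neutrophils lay above the median of the other barcodes, and on day 2 it was 5 of 49. The median of day 1 neutrophils was thus close to that of the library as a whole. Some counts below are also given without those 15 cells. The cells left still carry tubular RNA, and its part in the results was not tested.

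**Figure D3:**
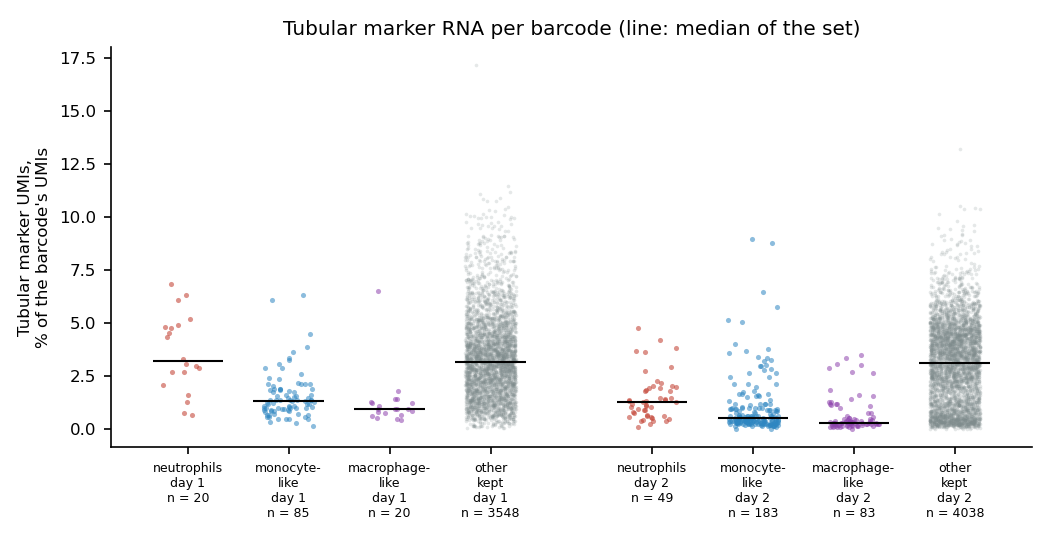
UMIs of tubular marker genes as a percentage of each barcode's UMIs (y axis) in neutrophils, monocyte-like cells, macrophage-like cells and all other kept barcodes of days 1 and 2; each point is a barcode and the line is the median of its set. Day 1 neutrophils (median 3.20%, 0.643% to 6.85%) had a median close to that of the other kept barcodes (3.17%, 0.0529% to 17.2%), over a narrower range.

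S100a8 UMIs also occurred outside neutrophils. On day 1 at least 1 S100a8 or S100a9 UMI was found in 27.0% of kept barcodes that were not neutrophils, and on day 2 in 18.9%, against 0.0815% in the control library. Thinned to 750 UMIs per barcode, S100a8 was expected in 8.48% of other kept barcodes on day 1 and 6.07% on day 2, against 95.1% and 98.1% of neutrophils. The share of S100a8 in the summed pair was 42.9% (exact 95% interval 40.9% to 44.9%) in the other barcodes of day 1 and 39.2% (36.4% to 42.1%) in neutrophils. On day 2 it was 49.9% (47.7% to 52.1%) and 50.4% (48.8% to 52.0%). In both libraries the intervals of the ratio overlapped between neutrophils and all other kept barcodes together. Monocyte-like cells stood higher, at 60% (43.3% to 75.1%) on day 1 and 74.1% (61.0% to 84.7%) on day 2, from 24 and 43 S100a8 UMIs. The other barcodes include 21 on day 1 and 14 on day 2 that met the S100 and second-gene terms but carried an excluded gene. Both S100 genes were in the rule, so the ratio is a description.

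B cell markers and platelet markers were at 0 UMIs in the neutrophils of days 1 and 2, and eosinophil, basophil and mast cell markers gave 1 UMI. T and NK markers gave 2 UMIs on day 1 and 22 on day 2, of which 15 were in 1 cell. Monocyte markers summed to 802 CPM on day 1 and 2837 CPM on day 2, against 4596 and 8436 CPM in monocyte-like cells; 4 of the 8 markers were also used to choose the monocyte-like cells, so their higher level is in part fixed by that choice. Of the 8 monocyte markers, Ly6c2 gave most of this on day 2, with 112 UMIs in 23 of 49 neutrophils. No barcode of a neutrophil was kept in another library; over the 45 pairs of libraries, 62 kept barcode sequences were shared, at most 4 per pair.

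A small set of genes was concentrated in the neutrophils. They held 0.422% of all UMIs in the kept barcodes of days 1 and 2. Of 14896 genes with at least 20 UMIs there, 7 had more than 50% of their UMIs in neutrophils and 29 more than 25%. S100a8 (54.2%), S100a9 (52.5%) and Retnlg (57.7%) were in the rule, so their place among the 7 is in part fixed by the choice of cells. The others were Mrgpra2a (65.7%), Mrgpra2b (65.0%), Asprv1 (63.3%) and Wfdc21 (61.3%). Their shares on day 1 alone were 37.5% (3 of 8 UMIs), 57.1% (4 of 7), 100% (1 of 1) and 45.5% (25 of 55). On day 2 alone they were 74.1%, 66.7%, 62.1% and 69.4%. Mrgpra2a and Mrgpra2b are neighbouring genes for Mas-related G protein-coupled receptors on chromosome 7, and their reads may be split between near-identical copies. Stefin A genes of chromosome 16, which encode cysteine protease inhibitors, were also among the 29: Stfa2l1 (43.1%), Stfa2 (38.7%), Stfa1 (32.7%) and Gm5483 (32.5%). They too form a family of close copies. Cxcr2 had 39.6% of its UMIs in neutrophils and Csf3r 37.9%, and both were in the rule. Barcodes with an excluded gene count among the rest here: 54 barcodes met the S100 and second-gene terms but carried such a gene, 21 of them on day 1 and 14 on day 2.

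Genes that played no part in the choice of cells were then compared with 2 other myeloid sets of the same libraries. Monocyte-like cells (268 on days 1 and 2) had under 10 S100a8 and S100a9 UMIs, the same 6 excluded genes at 0, at least 1 UMI of Lyz2 and at least 2 over Ccr2, Ly6c2, Ms4a6c and F13a1. Macrophage-like cells (103) had at least 3 UMIs of C1qa, C1qb and C1qc. UMIs were summed per library and set, and tested with library as a block by edgeR's quasi-likelihood test. Only days 1 and 2 had 20 cells of each set, so each test rests on 2 libraries and 1 residual degree of freedom. Median depth differed between sets: 1462.5 UMIs in day 1 neutrophils, 1245 in monocyte-like and 1403.5 in macrophage-like cells, and 1036, 2136 and 3523 on day 2.

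Against monocyte-like cells, neutrophils were higher in 54 of 1899 genes tested (2.84%) and lower in 22 (1.16%) at a Benjamini-Hochberg adjusted p under 0.05. Among the genes that were higher were Stfa2l1, Wfdc21, Hdc and Il1r2. Among those that were lower were Ccl2, Ccl7, Vcan and S100a4. These counts moved with the processing: 25 and 8 with DESeq2, 87 and 36 with another scaling, and 0 and 0 without the library block, where 202 genes had an unadjusted p under 0.05 against 358 with it.

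Of 21 granulocyte genes listed apart from the rule, all 21 were detected in neutrophils. Without a filter on low counts, where all 21 were tested against monocyte-like cells, 12 were higher and 0 lower, against 0.356% higher of 14891 genes. Most of those 14891 genes had too few counts for the filter, which kept 1899, so that share is not of genes with like counts. The list was also chosen with earlier results of these data known. The filter kept 16 of the 21, some of them only through their counts in neutrophils, so the counts with it are a description: 11 of 16 were higher. They were 14 of 18 when neutrophils above the median share of tubular UMIs were left out, 10 of 16 with DESeq2 and 0 without the library block (12 at an unadjusted p under 0.05). Per barcode thinned to 750 UMIs, at least 3 UMIs of this list were expected in 55.4% of neutrophils, 19.4% of monocyte-like cells and 1.82% of other kept barcodes on day 1. On day 2 these were 91.7%, 47.1% and 5.0%.

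Stfa2l1, a stefin A gene at chr16:36156811-36161953, gave 25 UMIs in day 1 neutrophils and 37 on day 2 (802 and 493 CPM), against 0 and 2 UMIs in monocyte-like cells. The ratio of the summed counts was 202 (95% counting interval 53.5 to 1702), higher in 2 of 2 libraries (edgeR's quasi-likelihood test, Benjamini-Hochberg adjusted p = 0.000184). Wfdc21, listed in the tables under an older symbol, encodes a small secreted whey acidic protein-domain protein. It was at 802 and 999 CPM in neutrophils, against 0 and 14.2 CPM in monocyte-like cells, a log2 change of 6.65 (SE 0.57). SE throughout is the absolute log2 change divided by the square root of the F statistic of edgeR's test. It is not a spread measured between the 2 libraries. Hdc, the histidine decarboxylase that makes histamine, was at 192 and 546 CPM against 0 and 7.09 CPM (log2 change 6.48, SE 0.65). Il1r2, the decoy receptor for IL-1, gave 4 UMIs in day 1 neutrophils and 25 on day 2 against 1 and 1, a ratio of 94.3 (23.9 to 816).

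Mrgpra2b and Il1f9 were at 0 UMIs in the monocyte-like cells of both libraries. With 3 counts over the group taken as the floor, Mrgpra2b (26 UMIs in neutrophils) was at least 56.4-fold higher, and Il1f9 (17 UMIs), which encodes the IL-1 family cytokine IL-36γ, at least 36.9-fold higher. G0s2, an inhibitor of triglyceride lipase, was at 545 and 519 CPM against 23.6 and 12.4 CPM (log2 change 5.28, SE 0.51). Mxd1, a MAX-binding repressor that opposes MYC, was at 289 and 1145 CPM against 7.88 and 31.9 CPM (log2 change 5.35, SE 0.50). Lrg1, a secreted leucine-rich glycoprotein, was at 289 and 852 CPM against 31.5 and 8.86 CPM (log2 change 5.65, SE 0.72). Stfa1 completed the 10 leading genes, with 16 UMIs against 1. Each of these 10 genes kept an adjusted p under 0.05 in all alternatives that tested it except the model without the library block, where adjusted p lay between 0.0620 and 0.184 (edgeR's quasi-likelihood test). The 10 were picked as the largest called changes, and some, such as Mrgpra2b and Il1f9, passed the filter only through neutrophils. Their p-values are therefore a description.

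Msrb1, a methionine sulfoxide reductase, was seen in 39 of 49 day 2 neutrophils and stood at 481 and 1638 CPM, against 181 and 473 CPM in monocyte-like cells (log2 change 1.90, SE 0.33). Wfdc17 was at 1347 and 1705 CPM against 150 and 333 CPM (log2 change 2.92, SE 0.36), and Ifitm1 at 481 and 719 CPM against 15.8 and 35.4 CPM (log2 change 4.68, SE 0.48). Slfn4, a Schlafen family gene, was at 545 and 2970 CPM against 63.1 and 544 CPM (log2 change 2.87, SE 0.37). It was detected in 10 of 20 neutrophils on day 1 and 47 of 49 on day 2. The 5 listed genes that were tested and did not pass were Clec4e, Clec5a, Cd300lf, Alox5ap and Plbd1, with log2 changes between -1.54 and 1.77.

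**Figure D4:**
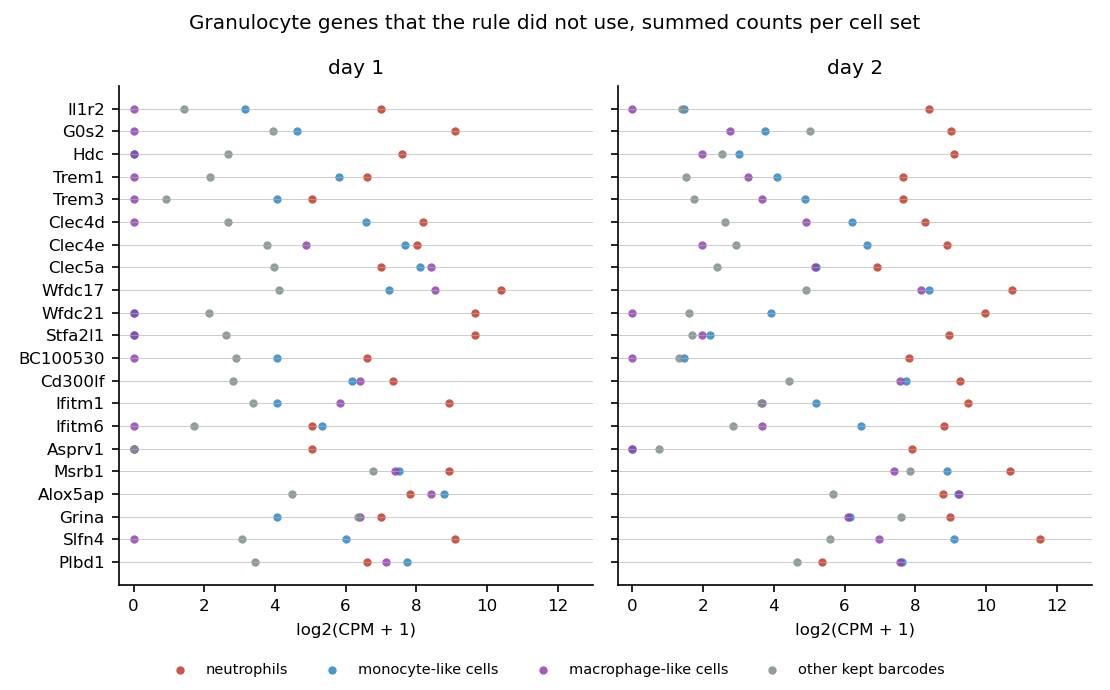
Level of the 21 listed granulocyte genes (y axis) as log2(CPM + 1) of summed counts on days 1 and 2, in neutrophils, monocyte-like cells, macrophage-like cells and all other kept barcodes. Neutrophils are the highest set for most genes; Alox5ap and Plbd1 are lower in neutrophils than in monocyte-like cells on both days.

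Of the 10 leading genes on the lower side, 4 encode chemokines: Ccl2, Ccl7, Ccl9 and Ccl12. Ccl2, the main chemoattractant of monocytes, gave 0 UMIs in day 1 neutrophils and 16 on day 2 (213 CPM), against 4170 and 3342 CPM in monocyte-like cells (log2 change -4.57, SE 0.63). Ccl7 gave 1 and 0 UMIs in neutrophils against 94 and 689, and Ccl12 gave 0 and 1 against 56 and 706. Vcan, which encodes the matrix proteoglycan versican, was at 0 UMIs in neutrophils against 95 in monocyte-like cells, at least 4.87-fold lower. S100a4, a further S100 gene of monocytes, was at 64.1 and 66.6 CPM against 670 and 796 CPM (log2 change -3.27, SE 0.49). The scavenger receptor gene Msr1 had a log2 change of -3.58 (SE 0.64). Ccl9, C3ar1 and Metrnl had 2 UMIs each over the 69 neutrophils, against 163 to 250 in monocyte-like cells.

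Against macrophage-like cells, 125 of 1044 genes tested were higher in neutrophils (12.0%) and 62 lower (5.94%). Here edgeR gave the spread shared by all genes infinite weight (prior degrees of freedom), against 8.64 for monocyte-like cells. The p-values thus rest on that shared estimate. With a mitochondrial limit of 25% and libraries of 10 cells allowed, the counts were 24 and 6. In that setting 256 genes had an unadjusted p under 0.05, against 295. With DESeq2 the counts were 27 and 4, with another scaling 55 and 16, and without the library block 6 and 2. Without the filter 15 of the 21 listed granulocyte genes were higher and 0 lower, against 0.464% higher of 13803 genes. Most of those 13803 genes had too few counts for the filter. It kept 12 of the 21, some only through neutrophils, of which 11 were higher, and 4 without the block. Wfdc21 gave 100 UMIs in neutrophils and 0 in macrophage-like cells, at least 119-fold higher, and Lrg1 gave 73 against 0, at least 86.8-fold higher. Hp, which encodes haptoglobin, gave 65 UMIs against 1, a ratio of 232 (40.2 to 9301). Clec4e, a C-type lectin receptor for microbial and dead-cell lipids, was at 256 and 479 CPM against 28.2 and 2.91 CPM.

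Mgl2 (0 UMIs in neutrophils against 291), Pf4 (0 against 200) and Cd72 (0 against 134) were at least 27.2-fold, 18.7-fold and 12.5-fold lower in neutrophils than in macrophage-like cells. Ccl2 had a log2 change of -4.81 (SE 0.68) in this comparison. Ccl12, with 1 UMI in neutrophils against 1314, gave a ratio of 368 (66.0 to 14555). Of 5 macrophage markers tested all 5 were lower, among them Apoe (log2 change -3.01, SE 0.59) and Ctss (-2.17, SE 0.57), where 5.94% of all genes were lower. The macrophage-like cells were chosen by C1q UMIs and the neutrophils by having none, so lower macrophage markers are in part fixed by that choice. With another scaling, DESeq2, a mitochondrial limit of 25% or no library block, 0 of these 5 passed. In those settings 5, 3, 5 and 4 had an unadjusted p under 0.05. Of the neutrophils of day 2, 33 of 49 held Ctss UMIs, at 1332 CPM against 3738 CPM in macrophage-like cells.

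RNA of granule genes was uneven. Only RNA was measured, so these counts do not show which proteins the granules held. Neutrophils load their granules in sequence as they mature: primary granules with myeloperoxidase and serine proteases, secondary granules with lactoferrin and cathelicidin, and tertiary granules with gelatinase. Of 5 genes listed for primary granules, 4 could be looked up: Mpo, Prtn3, Ctsg and Ms4a3. All 4 were at 0 UMIs in the neutrophils of days 1 and 2. Ms4a3 was listed with them but does not encode a granule protein. A count of 0 in the 31191 UMIs of day 1 and 75080 of day 2 allows up to 96.2 and 40 CPM. Camp, for cathelicidin, was at 0 UMIs, and Ltf and Ngp gave 1 UMI each. Mmp8, for neutrophil collagenase, gave 10 UMIs in 4 of 20 neutrophils on day 1 and 6 in 5 of 49 on day 2, and Mmp9, for gelatinase B, gave 1 and 9. Slpi, an inhibitor of neutrophil elastase, was seen in 2 of 20 and 19 of 49.

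Lcn2, which encodes the iron-sequestering protein NGAL of secondary granules and is also made by injured tubule epithelium, was at 2308 CPM in day 1 neutrophils and 306 CPM on day 2. In the other kept barcodes it was at 1273 and 391 CPM. Neutrophils and the rest therefore moved the same way between these 2 libraries. Against monocyte-like cells Lcn2 was higher (log2 change 1.73, SE 0.39, edgeR's quasi-likelihood test, Benjamini-Hochberg adjusted p = 0.0386), a call lost in 4 of 11 alternatives. In this and every such count, leaving Il1b out of the rule and allowing libraries of 10 cells kept the same cells. Those alternatives could lose no call. Of the 3 secondary granule genes tested in this comparison 1 was higher and 1 lower, where 2.84% and 1.16% of all genes were. The lower one was Chil3, listed in the tables as Chi3l3, which encodes a chitinase-like protein (log2 change -3.01; edgeR's quasi-likelihood test, Benjamini-Hochberg adjusted p = 0.0484), a call lost in 3 of 10 alternatives. Anxa1, for the pro-resolving protein annexin A1, was at 256 and 866 CPM in neutrophils against 56.4 and 303 CPM in macrophage-like cells (log2 change 1.85, SE 0.53), a call lost in 4 of 11 alternatives. Of the granulocyte transcription factors, Cebpe and Gfi1, which act in the marrow precursors, were at 0 UMIs, as was Cebpa, while Cebpb was seen in 6 of 20 and 9 of 49 neutrophils and Spi1, which encodes PU.1, in 4 and 16. Of 8 cell cycle genes, Mki67 gave 5 UMIs in 2 neutrophils on day 1 and 1 UMI on day 2.

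All 27 genes listed for receptors and adhesion molecules were detected, among them Csf3r, which was in the rule. That count is therefore in part fixed by the choice of cells, and the share of all genes detected is not given here. Apart from Il1r2, the genes that were higher than in monocyte-like cells were Ccr1, a receptor for CCL3 and CCL5 (417 and 693 CPM against 237 and 145 CPM; log2 change 1.92, SE 0.44), and Selplg, the selectin ligand PSGL-1 with which leukocytes roll on endothelium (160 and 506 CPM against 55.2 and 149 CPM; log2 change 1.94, SE 0.45). In all, 3 of 14 tested were higher and 0 lower, where 2.84% of all genes were higher. This was 1 of 14 with DESeq2, 0 without the library block (4 at an unadjusted p under 0.05), and 2 higher and 1 lower of 25 without the filter. The calls of Ccr1 and Selplg were lost in 2 and 3 of 11 alternatives. Cxcr4, for the receptor that retains neutrophils in the marrow, gave 1 UMI on day 1 and 11 on day 2. Fpr1 and Fpr2, for formyl peptide receptors, gave 5 and 2 UMIs on day 1 and 8 and 21 on day 2. C5ar1, for the receptor of complement C5a, was at 192 and 226 CPM against 276 and 76.2 CPM in monocyte-like cells and did not pass (log2 change 0.94, SE 0.55).

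Cytokine RNA in neutrophils was dominated by Il1b, which was in the rule, with 51 UMIs on day 1 and 239 on day 2 (1635 and 3183 CPM). Cxcl2, a ligand of CXCR2, followed with 40 UMIs in 9 of 20 neutrophils, of which 57.5% were in 1 cell, and 76 UMIs in 19 of 49. It was at 1282 and 1012 CPM, against 977 and 326 CPM in monocyte-like cells and 1889 and 925 CPM in macrophage-like cells, and passed neither test. Of 28 neutrophils with Cxcl2 UMIs, 26 also held Il1b UMIs, as did 56 of all 69. Tnf gave 0 and 6 UMIs, Osm 2 and 11, Il1rn (the IL-1 receptor antagonist) 3 and 18, and Il6 and Il1a none. Of 7 genes in the list of 18 tested against monocyte-like cells, Ccl2 alone passed, on the lower side, where 1.16% of all genes were. With another scaling or an S100 minimum of 20 UMIs, 2 of 7 were higher and 1 lower. A mitochondrial limit of 25% gave 3 higher and 1 lower of 8. With DESeq2 or without the library block 0 were higher and 0 lower. Against macrophage-like cells Ccl2, Ccl3 (log2 change -2.49, SE 0.71) and Ccl4 (-1.66, SE 0.57) were lower, 3 of the 6 tested, where 5.94% of all genes were. The calls of Ccl3 and Ccl4 were lost in 6 and 7 of 11 alternatives, and with DESeq2 or another scaling 1 of the 6 passed.

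Besides Cxcl2, 4 further genes for signals that call neutrophils are given here as levels outside them. A list of 12 genes for ligands of neutrophil receptors, not given whole here, summed there to 306 CPM on day 1 and 364 CPM on day 2. Csf3, for G-CSF, had a level of 0 CPM in the rest of the day 1 library and 0.0617 CPM on day 2, and Il17a was at 0 on both days. Cxcl5 was at 1.01 and 0.185 CPM and Cxcl1 at 46.9 and 130 CPM in the other kept barcodes. Cxcl1 gave 1 and 3 UMIs in neutrophils.

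Genes of the oxidative burst were present at low counts. Cyba, for the p22phox subunit of the NADPH oxidase, was seen in 9 of 20 neutrophils on day 1 and 32 of 49 on day 2, and Cybb, for its catalytic subunit, in 0 and 9. With edgeR's test and with DESeq2, 0 of the 6 oxidase genes passed against monocyte-like cells (1 had an unadjusted p under 0.05 in each), and their median log2 change was 0.04. Over all genes 2.84% were higher and 1.16% lower with edgeR. With an S100 minimum of 5 or 20 UMIs, a mitochondrial limit of 25% or no filter, 1 of the 6 was lower. Cybb was lower than in macrophage-like cells (log2 change -1.89, SE 0.55), with 266 CPM on day 2 against 785 CPM, a call lost in 6 of 11 alternatives. Of 7 inflammasome genes, 6 were detected, and 0 of the 3 tested passed against monocyte-like cells with edgeR or DESeq2 (0 at an unadjusted p under 0.05). With an S100 minimum of 20 UMIs 1 of 4 was higher. Nlrp3 gave 1 and 3 UMIs. Of 17 glycolysis and hypoxia genes, 0 of 9 tested passed against monocyte-like cells with edgeR (1 at an unadjusted p under 0.05) or DESeq2. With an S100 minimum of 5 or 20 UMIs, or a mitochondrial limit of 25%, 1 of 9 was higher. Against macrophage-like cells 1 of 5, Ndrg1, was higher, where 12.0% of all genes were, a call lost in 5 of 11 alternatives. Ndrg1 was also abundant outside neutrophils, at 647 and 1111 CPM in the other kept barcodes against 513 and 613 CPM in neutrophils.

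In the list of NF-kB feedback and survival genes, Tnfaip2 was higher than in both sets, with log2 changes of 2.26 (SE 0.52) and 4.13 (SE 0.92), calls lost in 3 of 11 and 3 of 10 alternatives. With DESeq2 0 of 12 genes of the list passed against monocyte-like cells (4 at an unadjusted p under 0.05). Nfkbia, for the inhibitor of NF-kB, was at 1154 and 1718 CPM in neutrophils against 649 and 608 CPM in macrophage-like cells (log2 change 1.44, SE 0.52). Mcl1, a survival factor on which neutrophils depend, was at 609 and 346 CPM against 56.4 and 198 CPM (log2 change 1.73, SE 0.54). The Bcl2a1 copies Bcl2a1a, Bcl2a1b and Bcl2a1d were lower than in macrophage-like cells, at log2 changes of -1.87 to -1.94. In all, 3 of 9 genes tested were higher and 3 lower than in macrophage-like cells, where 12.0% and 5.94% of all genes were. With another scaling these were 1 and 0, and with DESeq2 0 and 0, where 5 had an unadjusted p under 0.05. The calls of Nfkbia and Mcl1 were lost in 5 and 6 of 11 alternatives and those of the Bcl2a1 copies in 6 to 8. Reads of the Bcl2a1 copies may be split, since these paralogs are near-identical. Icam1 and Nfkbie were at 0 UMIs in neutrophils.

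Tubular genes were also among those higher in neutrophils. Of 9 proximal tubule markers tested against monocyte-like cells 6 were higher and 0 lower, among them Kap, Slc34a1, Lrp2, Gpx3 and Slc27a2, with log2 changes from 1.64 to 2.09; over all genes 2.84% were higher. The count was 3 of 9 with DESeq2, 2 of 12 without the filter, 1 of 9 without cells over 2 times the median UMIs and 0 without the library block (5 at an unadjusted p under 0.05). Gpx3, for a secreted glutathione peroxidase, was at 5771 and 5328 CPM in neutrophils, 1750 and 2263 CPM in monocyte-like cells and 5560 and 10025 CPM in all other kept barcodes. Against macrophage-like cells 6 of 7 were higher, where 12.0% of all genes were. This was 3 of 7 with DESeq2, 2 of 12 without the filter and 0 without the block (6 at an unadjusted p under 0.05). Leaving out the cells with most tubular UMIs is no check here, since the same markers choose those cells. The part of RNA from other cells in this difference was not tested. Kap was uneven, with 203 of its 292 day 2 UMIs in 1 neutrophil.

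The genes that differed most by fold between the neutrophils of days 1 and 2 included many interferon-stimulated genes, which cells switch on in answer to signals from the interferon receptor. There was 1 library per day, so no test was possible, and intervals cover counting error only. The 16 listed genes summed to 36 UMIs in day 1 neutrophils, or 1154 CPM (exact Poisson 95% interval 808 to 1598), and to 2076 UMIs on day 2, or 27650 CPM (26474 to 28866). At least 1 UMI of the list was present in 60% of neutrophils on day 1 and in 100% on day 2. All 16 genes were more than 2-fold higher on day 2, against 145 of 590 genes (24.6%) with at least 30 UMIs over both libraries. With 36 UMIs on day 1 against 2076, the list met that minimum mainly through day 2, so this count is a description. Day 2 also held more neutrophil UMIs (75080 against 31191), so the minimum favours genes high on day 2, here and below.

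The rest of both libraries moved the same way. Over the same pair of days the list went from 1269 to 12320 CPM in monocyte-like cells, from 846 to 11766 CPM in macrophage-like cells and from 531 to 8611 CPM in all other kept barcodes. In the control library the other kept barcodes stood at 118 CPM, and on day 4 at 1358 CPM. The part of this library-wide difference in the neutrophils' values was not tested. On day 2 the neutrophils stood above the other sets, with a day 2 level 3.21 times that of all other kept barcodes and 2.24 times that of monocyte-like cells.

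Ifit1, for an interferon-induced RNA-binding protein, was at 0 UMIs in the 20 neutrophils of day 1 and gave 248 UMIs in 47 of 49 on day 2 (median 5, at most 21 per cell). With a floor of 3 counts it was at least 34.3-fold higher on day 2. Rsad2, for the antiviral enzyme viperin, gave 4 UMIs in 2 of 20 and 329 in 47 of 49 (128 and 4382 CPM). Isg15, for the ubiquitin-like modifier, gave 2 UMIs in 2 of 20 and 294 in 48 of 49 (64.1 and 3916 CPM). Ifit2 and Ifit3b, the latter listed under an older symbol, each gave 0 and 148 UMIs, at least 20.5-fold higher, and Ifit3 gave 0 and 147. Ifit1 was also present in the other kept barcodes of day 2 at 1297 CPM; thinned to 750 UMIs it was expected in 56.7% of those, 34.7% of monocyte-like cells and 89.1% of neutrophils.

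For 3 of these genes the 150 bases before the start are shown, as they were higher together on day 2 (RefSeq, GRCm38, 5′ to 3′ in the direction of the gene: Ifit1 chr19:34640721-34640870, Isg15 chr4:156200819-156200968, Rsad2 chr12:26456453-26456602). Capitals mark GAAA, any 2 bases and GAAA again, letters of the interferon-stimulated response element on either strand.
Ifit1: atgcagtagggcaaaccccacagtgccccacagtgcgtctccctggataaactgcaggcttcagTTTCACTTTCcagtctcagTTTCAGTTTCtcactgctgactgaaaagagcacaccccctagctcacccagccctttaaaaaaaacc
Isg15: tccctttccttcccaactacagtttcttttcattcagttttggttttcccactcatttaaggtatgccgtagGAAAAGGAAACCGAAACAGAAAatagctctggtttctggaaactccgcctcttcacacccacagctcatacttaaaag
Rsad2: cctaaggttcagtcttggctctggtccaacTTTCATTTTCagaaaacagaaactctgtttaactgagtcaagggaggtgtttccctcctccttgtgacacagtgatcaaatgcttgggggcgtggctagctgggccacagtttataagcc
Ifit1 held 2 separate matches, Isg15 held 3 that overlap each other, and Rsad2 held 1. Of 12 interferon genes of the list with such a window, 4 held the letters; over all 32851 windows the share was 1.59%. A window without these letters says nothing of the factor's binding elsewhere.

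Over both days, 3 of 16 interferon genes were higher in neutrophils than in monocyte-like cells: Ifit1 (log2 change 2.46, SE 0.44), Rsad2 (1.94, SE 0.47) and Gbp2 (3.48, SE 0.64), with a list median of 1.30, where 2.84% of all 1899 genes were higher. Against macrophage-like cells 8 of 15 were higher and 0 lower, with a median of 1.48, where 12.0% of 1044 were higher. On day 1 Gbp2 gave 0 UMIs in neutrophils against 2 in monocyte-like cells and Ifit1 gave 0 against 1 in macrophage-like cells, too few to show a direction. Gbp2, for a guanylate-binding GTPase, was at 0 UMIs in day 1 neutrophils and at 1172 CPM on day 2 (88 UMIs in 28 of 49 cells), against 99.2 CPM in monocyte-like and 118 CPM in all other kept barcodes of day 2. With DESeq2, 1 of 16 and 0 of 15 genes passed (4 and 3 at an unadjusted p under 0.05). With another scaling 7 and 2 were higher, without the filter 2 and 1 of 16, and without the library block none in either comparison, also at an unadjusted p under 0.05. With a mitochondrial limit of 25%, 6 of 15 and 0 of 15 were higher (13 and 11 at an unadjusted p under 0.05).

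**Figure D5:**
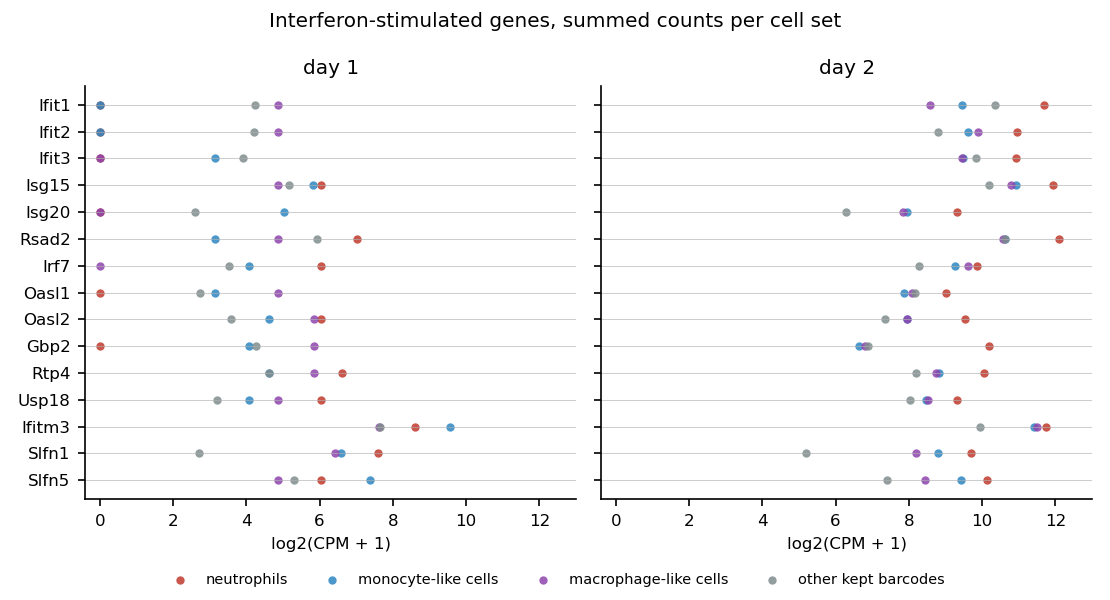
Level of 15 of the 16 listed interferon-stimulated genes (y axis) as log2(CPM + 1) of summed counts on days 1 and 2 in 4 cell sets. All sets lie further right on day 2, and neutrophils are the highest set for each gene on that day.

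Ccrl2, for an atypical chemokine-binding receptor, was at 0 UMIs in day 1 neutrophils and gave 74 UMIs in 25 of 49 on day 2, at least 10.2-fold higher. In monocyte-like cells it was at 142 and 117 CPM, in macrophage-like cells at 0 and 128 CPM, and in all other kept barcodes at 14.5 and 29.7 CPM. Iigp1 and Cxcl10, both interferon-inducible, were at 0 on day 1 and gave 66 and 56 UMIs on day 2, in 15 and 16 cells, at least 9.14-fold and 7.75-fold higher. Of the 14 listed granulocyte genes with at least 30 UMIs, 6 were more than 2-fold higher on day 2 (Hdc, Cd300lf, Ifitm6, Msrb1, Grina and Slfn4) and none more than 2-fold lower, where 24.6% of the 590 genes were higher.

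On the other side, 51 of 590 genes (8.64%) were at least 2-fold higher on day 1. Spp1 went from 17152 to 1705 CPM, Umod, the uromodulin of the thick ascending limb, from 834 to 107 CPM, and Ctsl, for cathepsin L, from 2918 to 440 CPM. In all other kept barcodes these 3 genes went from 17038 to 5582, from 1173 to 597 and from 3184 to 1029 CPM. Sprr2f had 65 UMIs on day 1, of which 30 were in 1 cell, and Atp6v1g3, an intercalated cell gene, had 32, of which 31 were in 1 cell. Mt1, the metallothionein, went from 1090 to 160 CPM, and the mitochondrial gene mt-Nd6 from 1186 to 173 CPM. In all other kept barcodes Mt1 went from 1895 to 586 CPM, mt-Nd6 from 1224 to 390 CPM and Sprr2f from 717 to 165 CPM. Atp6v1g3 stood there at 409 and 397 CPM. Retnlg was also past the fold, at 4360 and 1971 CPM, but was in the rule. Without the neutrophils above the median tubular share, 111 of 372 genes were higher on day 2 and 32 on day 1.

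The 9 neutrophils of later days were too few for a comparison and are given singly. On day 7 their S100a8 and S100a9 sums were 18, 23 and 73 UMIs in the first library and 14, 15, 40 and 78 in the second. Of these 7, the cell with 73 held 12 Retnlg, 4 Cxcr2 and 9 listed granulocyte UMIs, and the cell with 78 held 10 Il1b and 20 listed granulocyte UMIs. The cell with 18 and the cell with 14 held 0 UMIs of the granulocyte list. In the same order of cells, their sums of interferon genes were 1, 14 and 3 UMIs in the first day 7 library and 0, 0, 0 and 1 in the second. The day 14 barcode held 18 UMIs of the pair, 1 of Retnlg and 55 tubular UMIs of 978.

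The single day 4 barcode went against its label. It held 31862 UMIs and 6511 genes, far above the other neutrophils, whose highest UMI count was 6773. S100a8 and S100a9 made up 0.173% of its UMIs, and it held 337 UMIs of Aqp2, the collecting duct water channel, and 52 of Atp6v1g3. It is counted here by the rule, and without it 77 neutrophils remain.

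Library totals ranged from 7091848 to 31632205 UMIs. Of 64803 deposited barcodes, 10786 had fewer than 500 genes, all on day 11, and 1220 exceeded 50% mitochondrial UMIs. None of these met the gene terms of the rule. The other libraries, days 1 and 2 among them, had no deposited barcode under 500 genes. Neutrophils below that minimum could therefore not be counted there. Day 2 neutrophils had a median of 565 genes, against 1003 in all kept barcodes of that library, and the lowest had 502, so barcodes with fewer genes fall outside these counts. Day 1 neutrophils had a median of 750.5 genes, against 797.5.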

How the data were processed

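The authors deposited 1 table per library of counts per gene symbol and cell barcode, read here as UMI counts, which the labels do not state. Per the labels' protocols, cells were captured on microbeads by Drop-seq and the 3′ end of the cDNA was sequenced. The submitters' processing notes name Bowtie2 2.2.7 and the mm10 build; annotation and filters are not given in the sources used here. From these counts, neutrophils and comparison cells were chosen by the stated terms, no doublet caller was run, and UMIs were summed per library and set. Sums with at least 20 cells of each set were tested with edgeR 4.0.16 (TMM, filterByExpr, quasi-likelihood test, library as a block, Benjamini-Hochberg at 0.05 over all genes tested; tested on simulated data), with DESeq2 1.42.0 as an alternative. Each library gives both sums, so the library pairs them. Day 2 was set against day 1 by CPM without a test. Intervals are exact and cover counting error only. The text names whole lists with examples, the 10 genes per direction with the largest called change (average log2 CPM at least 5, the same direction in both libraries) and the 8 per direction with the largest fold between days, where genes at 0 on day 1 were ranked first whatever their lower bound. Values of a few listed genes are not reported here by name. Members and lists were chosen with earlier results of these data known. Positions come from the GENCODE annotation of GRCm38, in which 78 of 78 symbols looked up were matched; 17 overlap a gene on the opposite strand and 9 one on the same strand, and whether counting used strand is not given. Python 3.11.15, scipy 1.17.1 and R 4.3.3 were used. The planned trend over days was not run, as 2 libraries held 20 neutrophils and it needed 5.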

Additional observations from a re-analysis of the deposited data

How the results depend on the processing

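The neutrophil share of day 1 was 0.280% without the cells above the median tubular share, an alternative chosen after seeing the data, and otherwise kept within its interval; the total of 78 and the day 2 share stayed within 1.5 times and within their interval under every alternative. The counts of genes higher and lower than in monocyte-like cells, 54 and 22, were 110 and 39 with an S100 minimum of 5 UMIs, 87 and 36 with RLE size factors, 25 and 8 with DESeq2, and 53 and 109 without a filter on low counts. With libraries of 10 cells allowed, added after seeing the data, they were 117 and 47 with a minimum of 20, 129 and 62 with a mitochondrial limit of 25%, 42 and 8 without cells over 2 times the median UMIs, and 47 and 8 without cells of high tubular share. Against macrophage-like cells, 125 and 62, they were 55 and 16, 27 and 4, and 64 and 69 with RLE, DESeq2 and no filter, then 92 and 37, 24 and 6, 58 and 14, and 60 and 18 in the same 4 added settings. Without the library as a block the counts were 0 and 0 against monocyte-like and 6 and 2 against macrophage-like cells, and of the called genes named or listed 0 of 44 and 8 of 68 were still called. The replicate numbers of days 7, 11 and 14 entered no test, since too few neutrophils were found there. With day 1 alone the log2 change of Gbp2 was -0.70 against monocyte-like cells, and against macrophage-like cells Ifit1 was at -0.56 and Ms4a4c at 0.62, while with day 2 alone they were 3.48, 3.07 and -2.13. The day 1 values rest on 0 neutrophil UMIs against 2, 0 against 1 and 1 against 0, too few to show a direction. Genes past a 2-fold change between days, 145 and 51, were 62 and 20 with a minimum of 60 UMIs, and 32 were higher on day 1 without cells of high tubular share. Leaving out a library leaves no residual degree of freedom, so only values of single genes were recomputed. A minimum of 20 UMIs, a 25% mitochondrial limit and the UMI limit with 20 cells per library were not run, because 1 library was left, nor was the trend over days. Leaving Il1b out of the rule, or allowing libraries of 10 cells with no other change, kept the same cells and libraries, so those settings could change no call. The limits are 2 tested libraries, 69 cells and 106271 UMIs.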

Other observations

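Haemoglobin and other erythroid genes were present in 15 of 20 neutrophils on day 1, at 1507 CPM in their sum, against 2250 CPM in all other kept barcodes and 3011 CPM in monocyte-like cells. On day 2 they gave 2 UMIs in 1 of 49 neutrophils, or 26.6 CPM, against 95.3 CPM in the other kept barcodes. The day 1 neutrophils thus carried erythroid RNA, as the rest of that library did.

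Immediate early genes, which switch on quickly after stimulation or during tissue dissociation, summed to 4200 CPM in day 1 neutrophils and 5727 CPM on day 2. Monocyte-like cells stood at 6574 and 5279 CPM and all other kept barcodes at 4373 and 4280 CPM. With edgeR's quasi-likelihood test 0 of 12 passed against monocyte-like cells (2 at an unadjusted p under 0.05, and 0 with DESeq2), and 0 of 11 against macrophage-like cells (2 at an unadjusted p under 0.05, and 0 with DESeq2). Over all genes 2.84% were higher and 1.16% lower in the first comparison, and 12.0% and 5.94% in the second. A count of 0 of 12 is close to the first shares and says little of these genes. Antigen-presentation genes were scarce in neutrophils, at 994 and 200 CPM against 2357 and 1675 CPM in monocyte-like cells, and 24 of the 31 UMIs of day 1 were in 1 cell.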
